A study of Rattus norvegicus with 13 samples.

Results

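The miR-30 family of microRNAs was followed here in rat kidney small RNA libraries. Its 10 members were the rows of the rat mature class of the deposited count table that carry the names rno-miR-30a-5p, rno-miR-30b-5p, rno-miR-30c-5p, rno-miR-30d-5p, rno-miR-30e-5p, rno-miR-30a-3p, rno-miR-30b-3p, rno-miR-30c-2-3p, rno-miR-30d-3p and rno-miR-30e-3p. They were chosen by name and not by level, out of 460 rat mature miRNAs and 1121 features in all. All 10 passed the filter on low counts, which left 419 rat miRNAs for testing. The kidneys came from 13 female WAG/RijCmcr rats, a Wistar-derived inbred strain, weighing around 155 g at an age of 11 to 12 weeks. The control group (n = 4) was given 0 Gy. The irradiated group (n = 4) was given leg-out partial-body irradiation, a dose of 13 Gy that left a hind limb out of the field, from a 320 kVp X-ray source at a rate of 1.75 Gy per minute. The lisinopril group (n = 5) was given the same irradiation and, from day 7, lisinopril, an inhibitor of angiotensin converting enzyme, in the drinking water at 24 mg per square metre per day. All 13 kidneys carry the label of day 35 after irradiation, the controls included. The protocol also lists saline at 40 ml per kg per day on days 3 to 7 and enrofloxacin at 10 mg per kg per day up to day 14 as supportive care. It does not say whether control rats received these, so irradiation and supportive care cannot be told apart in a comparison with control.

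A miRNA hairpin is cut into a duplex whose strands are called the 5p and the 3p arm. A strand loaded into an Argonaute protein recognises messenger RNAs mainly through its seed, bases 2 to 8. The 5p arms of the miR-30 family share a seed and so overlap in predicted targets. The 3p arms have other seeds, which some of them share. In the kidney the family is known to be abundant in podocytes and tubular epithelium. Work in other models has linked it to podocyte homeostasis, nephron development and restraint of epithelial-mesenchymal transition.

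Mature sequences of 5 of the 10 members were found in the RefSeq miRNA table (assembly GRCr8). These, and that of rno-miR-30c-1-3p, which is not among the members, are shown 5′ to 3′ with the seed in capitals. A shared seed means overlap in predicted targets, while differences over the whole sequence decide which members a short read can tell apart.
rno-miR-30a-5p: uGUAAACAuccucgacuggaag
rno-miR-30e-5p: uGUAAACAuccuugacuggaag
rno-miR-30c-5p: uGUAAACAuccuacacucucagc
rno-miR-30a-3p: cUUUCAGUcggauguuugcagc
rno-miR-30c-2-3p: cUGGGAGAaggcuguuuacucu
rno-miR-30c-1-3p: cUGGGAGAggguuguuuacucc

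The 3 5p sequences shared their first 12 bases, and so the seed GUAAACA. Among 693 mature rat miRNAs in the RefSeq table, 4 (0.577%) had this seed. That count is a lower limit, because miR-30b-5p and miR-30d-5p were not found there. The 4th was rno-miR-384-5p, which averaged 4.05 CPM in control kidneys, 1.78 in irradiated kidneys and 2.55 with lisinopril. CPM is the read count scaled to the rat mature total of its library, with that total adjusted by the trimmed mean of M-values (TMM). Counted from the 5′ end, miR-30a-5p and miR-30e-5p differed by the single substitution C13U, with the base of miR-30a-5p first. miR-30a-5p and miR-30c-5p differed by C13A, G14C, G18C, G19U and A20C over 22 compared bases. Of the 3p arms shown, miR-30c-1-3p and miR-30c-2-3p shared the seed UGGGAGA and differed by G9A, U12C and C22U, while miR-30a-3p had the seed UUUCAGU.

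The deposited class of these rows is named mature_unique, but what unique refers to is not stated. How reads that match several miRNAs were assigned is not stated in the labels either. The separate counts of miR-30a-5p and miR-30e-5p, 1 base apart, are therefore uncertain to an unknown extent. The mature miR-30c-5p is the same in the hairpins of Mir30c1 and Mir30c2, so its reads cannot be divided between those genes. The hairpins are shown with both arms in capitals, because the ratio of the arms is described further on.
Mir30a: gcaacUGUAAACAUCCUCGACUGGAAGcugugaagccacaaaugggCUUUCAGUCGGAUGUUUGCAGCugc
Mir30c1: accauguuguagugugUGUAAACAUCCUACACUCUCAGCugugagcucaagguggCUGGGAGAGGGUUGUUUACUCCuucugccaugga
Mir30c2: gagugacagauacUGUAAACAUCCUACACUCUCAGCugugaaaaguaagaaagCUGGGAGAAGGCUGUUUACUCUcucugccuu

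In the same annotation Mir30a and Mir30c2 are neighbours, as are Mir30c1 and Mir30e, and Mir30b and Mir30d, with 0 other miRNA genes between the genes of each pair.

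Rat mature counts ranged from 1194175 to 11095939 per library. Control library 2 was the shallowest, and 29.0% of its mature counts carried names of other species, against 10.3% to 14.6% elsewhere. The lowest count of any member in any library was 12, for miR-30b-3p in control library 2, with an exact Poisson 95% interval of 6.20 to 21.0 that covers counting error only. Irradiated libraries 2 and 4 lay farthest from the rest of their group, with median absolute log2 gaps of 0.403 and 0.370 against 0.130 to 0.280 in the others. Summed CPM of 5 kidney tubule markers (miR-192-5p, miR-194-5p, miR-204-5p, miR-10a-5p and miR-196a-5p) was 354896 to 636758 in control, 292224 to 392495 in irradiated and 372390 to 478536 in lisinopril libraries, and all 5 were detected in all libraries. The 5 leukocyte markers summed to 676 to 1014, 817 to 1260 and 660 to 1423 CPM in the same order. That sum was mostly miR-150-5p, while the other 4 had negative estimates for irradiated against control, and the median of the 5 was −0.57. The liver marker miR-122-5p had no row in the rat class. In whole-kidney RNA, fewer cells of a type and less RNA per cell cannot be told apart.

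The family was a large part of the kidney miRNA pool in every library. It took 12.7% to 15.7% of rat mature counts over the 13 libraries. The share was 14.0 ± 1.25% (SD, n = 4) in control, 14.1 ± 0.245% (n = 4) in irradiated and 13.7 ± 0.566% (n = 5) in lisinopril kidneys. The 5p arms held nearly all of it, at 12.5% to 15.5% of rat mature counts. The 3p arms held 0.194 ± 0.0349% in control, 0.249 ± 0.0203% in irradiated and 0.257 ± 0.0227% in lisinopril kidneys. For scale, miR-10a-5p, the most abundant rat miRNA, took 28.9% to 44.2%. On the TMM scale, the summed family level was 151673 ± 18257 CPM in control, 127162 ± 9456 in irradiated and 141073 ± 9601 in lisinopril kidneys. The shares of total counts were alike in control and irradiated kidneys while the scaled sums were not, because TMM factors averaged 0.935 in control and 1.11 in irradiated libraries.

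Within the family the order of levels was set mainly by miR-30a-5p. Its mean of 81375 CPM over the 13 libraries was the 2nd highest of 419 rat miRNAs. It exceeded miR-30d-5p in 13 of 13 libraries, with a ratio of means of 4.33. The next 3 members were close: miR-30d-5p averaged 18803, miR-30c-5p 17636 and miR-30e-5p 17306 CPM, ranks 11, 12 and 13. Their order did not hold in every library. miR-30d-5p was above miR-30c-5p in 10 of 13 libraries and miR-30c-5p above miR-30e-5p in 7 of 13, so neither pair of neighbours was separated beyond its spread. miR-30b-5p was the least abundant 5p arm, at 2586 CPM and rank 34, and lay below miR-30e-5p in 13 of 13 libraries.

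The 3p arms followed on lower levels, all below miR-30b-5p. miR-30a-3p averaged 1066 CPM (rank 59) and miR-30e-3p 899 CPM (rank 62), and the former was higher in 12 of 13 libraries, although their ranges overlapped. miR-30c-2-3p averaged 206 and miR-30d-3p 162 CPM, in that order in 9 of 13 libraries. miR-30b-3p averaged 14.9 CPM, rank 260, and was below miR-30d-3p in 13 of 13 libraries. Of the summed 5p counts, miR-30a-5p made up 46.6% to 67.1% and miR-30b-5p 1.29% to 3.14% over libraries.

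**Figure D1:**
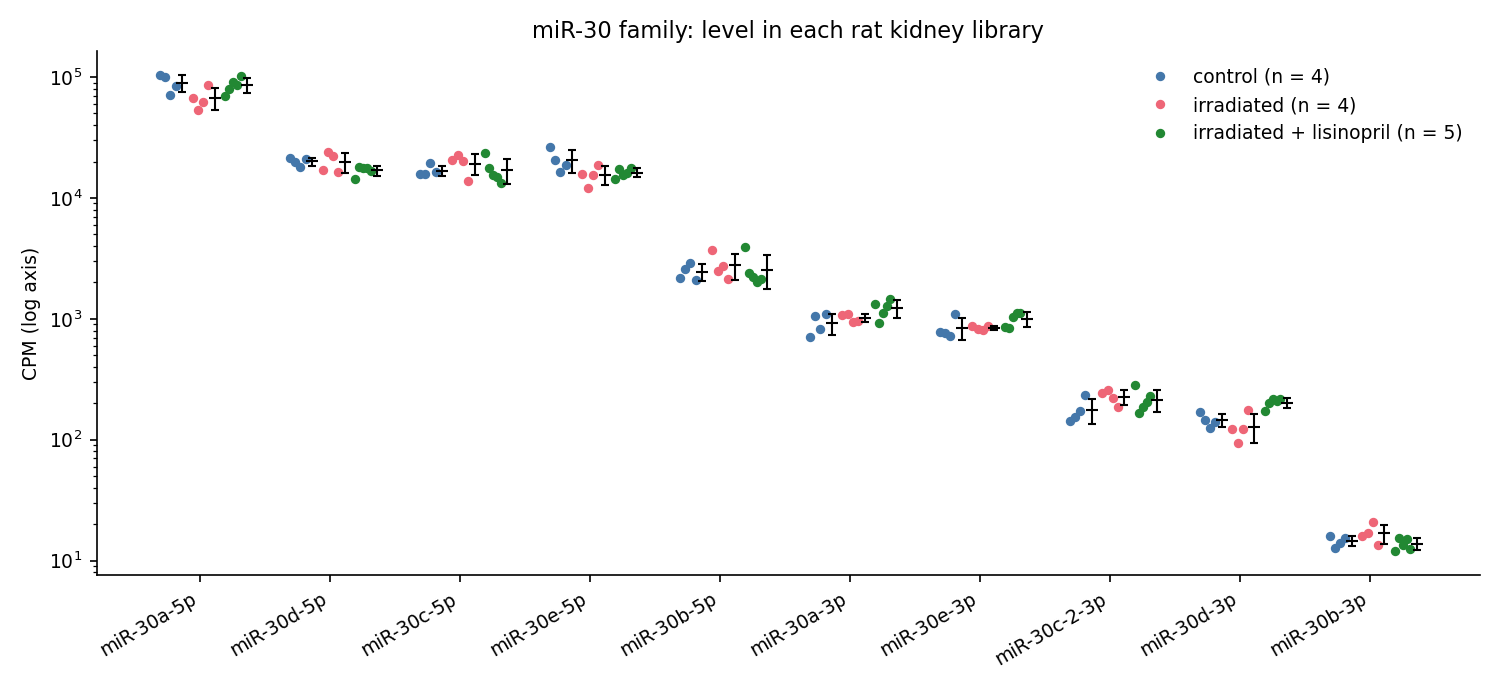
Level of each of the 10 members in CPM (log axis), ordered by mean. Points are libraries coloured by group, and bars are group means ± SD beside them. miR-30a-5p stands above the other members in every library, miR-30d-5p, miR-30c-5p and miR-30e-5p overlap, and miR-30b-3p lies lowest at 11.9 to 20.9 CPM.

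Whether irradiation alone moved the family was asked by setting irradiated against control kidneys. Differences are log2 fold changes from edgeR's quasi-likelihood fit to all 13 libraries, with Benjamini-Hochberg adjustment over 419 miRNAs. The edgeR test gives no SE, so the SE of these differences is the absolute difference over the square root of its F statistic. Their 95% intervals were built on that SE. In edgeR no member passed the threshold of 0.05, while 1.67% of all rat miRNAs did. DESeq2 and limma-voom called no member either. Over all rat miRNAs DESeq2 called 11 higher and 13 lower, and limma-voom 2 higher and 5 lower. Unadjusted p from edgeR was under 0.05 for 2 of 10 members and for 22.2% of all. The 2 members were miR-30a-5p and miR-30e-5p, the pair separated by a single base. No member had groups that did not overlap, against 7.16% of all rat miRNAs.

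miR-30a-5p was measured at 103320, 100466, 71087 and 84456 CPM in control libraries 1 to 4. In irradiated libraries 1 to 4 it was at 67676, 53334, 62327 and 86214 CPM. Irradiated libraries 1 to 3 were lower than every control library, and irradiated library 4 lay among the controls. The fitted difference was −0.41 (SE 0.165, adjusted p = 0.143, edgeR). miR-30e-5p stood at 26286, 20550, 16341 and 18627 CPM in control and at 15834, 12029, 15359 and 18872 CPM in irradiated libraries. It showed the same layout, with irradiated library 4 again inside the control range. Its difference was −0.40 (SE 0.156, adjusted p = 0.143, edgeR). Without irradiated library 4 both passed the threshold, miR-30a-5p at −0.54 with adjusted p = 0.0352 and miR-30e-5p at −0.49 with adjusted p = 0.0444 (edgeR). In that setting calls over all rat miRNAs also rose, from 2 to 35 higher and from 5 to 25 lower. Both differences were smaller on library totals alone, at −0.16 for miR-30a-5p and −0.14 for miR-30e-5p, with adjusted p of 0.375 and 0.492 (edgeR). Without control library 1 they were −0.34 for miR-30a-5p and −0.26 for miR-30e-5p, with adjusted p of 0.357 and 0.420 (edgeR). When each library was left out in turn, miR-30a-5p ranged from −0.54 to −0.31 and miR-30e-5p from −0.50 to −0.26. The summed tubule markers given above also ran lower in irradiated libraries, but the ranges of the groups overlapped. That sum was mostly miR-10a-5p, which averaged 345162 CPM over the 13 libraries. Of the 5 markers 1 had a positive estimate, and their median was −0.31, against 0.02 over all rat miRNAs. The part of the tubule markers in these differences was not tested.

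Of the other 5p arms, miR-30c-5p and miR-30b-5p had positive estimates and miR-30d-5p lay near 0. miR-30c-5p had 16841 ± 1678 CPM (n = 4) in control and 19267 ± 3815 (n = 4) in irradiated kidneys, a difference of 0.19 with a 95% interval of −0.18 to 0.57. miR-30b-5p had 2440 ± 381 CPM in control and 2774 ± 674 in irradiated kidneys, and a difference of 0.19. miR-30d-5p averaged 20020 ± 1525 in control and 19976 ± 3782 CPM in irradiated kidneys, and its interval ran from −0.29 to 0.28.

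Of the 3p arms, miR-30c-2-3p had the largest difference, 0.36 (SE 0.188, adjusted p = 0.285, edgeR). It was measured at 142, 155, 174 and 234 CPM in control libraries 1 to 4. In irradiated libraries 1 to 4 it was at 244, 258, 220 and 185 CPM, and the groups overlapped through control library 4 and irradiated libraries 3 and 4. On library totals alone the difference of miR-30c-2-3p was 0.61 (adjusted p = 0.119, edgeR). The remaining 3p arms lay between −0.17 and 0.18. Over the 10 members the median log2 fold change was 0.08, against 0.02 over all 419 rat miRNAs, and 6 of 10 were positive. Scaled by library totals alone, the median of all rat miRNAs moved to 0.26 and 8 of 10 members were positive, with miR-30d-5p at 0.27 and miR-30d-3p at 0.07 in place of −0.00 and −0.17.

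**Figure D2:**
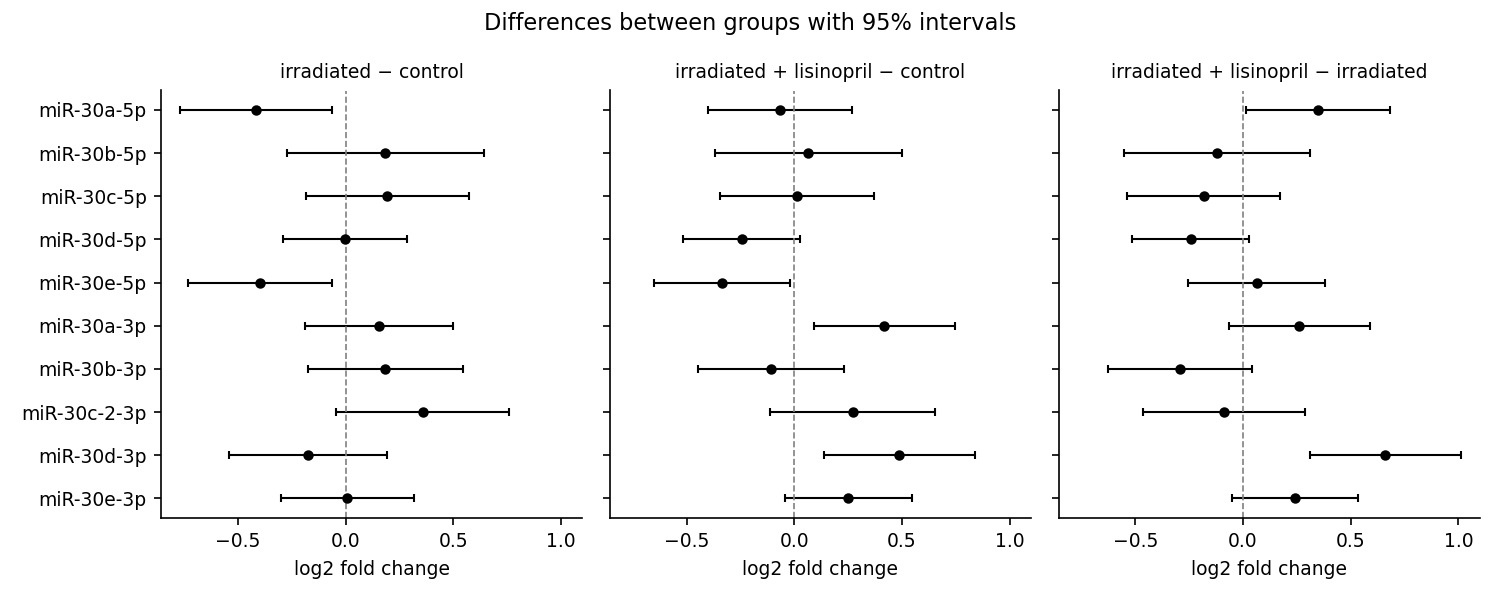
Log2 fold change of each member in 3 comparisons, from edgeR. Points are estimates and bars 95% intervals, unadjusted for the number of miRNAs. The largest is that of miR-30d-3p between lisinopril-treated and irradiated kidneys, at 0.66, and no member passed the adjusted threshold in any panel.

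Whether lisinopril moved the family after irradiation was asked by setting lisinopril-treated against irradiated kidneys. edgeR called no member and none of the 419 rat miRNAs (0%). DESeq2 called 4 higher and 5 lower among all rat miRNAs here, 1 of them a member (miR-30d-3p), and limma-voom called 0 higher and 2 lower. Unadjusted p was under 0.05 for 2 of 10 members and for 15.0% of all. These were miR-30d-3p and miR-30a-5p. No member had groups that did not overlap, against 4.30% of all rat miRNAs.

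miR-30d-3p, the minor arm of miR-30d, showed the largest difference of the family. It was measured at 168, 146, 126 and 139 CPM in control libraries 1 to 4. In irradiated libraries 1 to 4 it was at 122, 93.6, 122 and 176 CPM. In lisinopril libraries 1 to 5 it was at 172, 199, 216, 210 and 217 CPM. All lisinopril libraries were above all controls, and irradiated library 4 alone kept the irradiated group from lying below the lisinopril group. Against irradiated kidneys the difference was 0.66 (SE 0.164, adjusted p = 0.0931, edgeR), the 4th smallest p of 419. DESeq2 called it, at 0.64 with adjusted p = 0.0149. Without irradiated library 4 it was 0.83 with adjusted p = 0.0138 (edgeR). In that setting calls over all rat miRNAs rose from 0 to 20 higher and from 0 to 27 lower. On library totals alone the difference of miR-30d-3p was 0.49 with adjusted p = 0.119 (edgeR). It ranged from 0.52 to 0.83 when each library was left out in turn.

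miR-30a-5p stood at 70271, 79607, 91619, 85710 and 101789 CPM in lisinopril libraries 1 to 5, on both sides of irradiated library 4 and above irradiated libraries 1 to 3. Its difference from irradiated kidneys was 0.35 (SE 0.158, adjusted p = 0.307, edgeR). With both control library 2 and irradiated library 4 left out, a choice made after the data were seen, it was 0.49 with adjusted p = 0.0469 (edgeR). Calls over all rat miRNAs then rose from 0 to 29 higher and from 0 to 34 lower. On library totals alone the difference of miR-30a-5p was 0.16 with adjusted p = 0.414 (edgeR). miR-30e-5p, its near-identical partner, had 15524 ± 2801 CPM in irradiated and 16215 ± 1395 in lisinopril kidneys, a difference of 0.06. Scaled by library totals alone, miR-30e-5p turned to −0.11, where the median over all rat miRNAs was −0.21.

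The opposite sign stood in 5 members, which were both arms of miR-30b, miR-30c-5p, miR-30c-2-3p and miR-30d-5p. miR-30b-3p was at 16.8 ± 3.11 CPM in irradiated and 13.7 ± 1.56 in lisinopril kidneys, a difference of −0.29 with a 95% interval of −0.63 to 0.04. miR-30d-5p was at 16892 ± 1593 CPM in lisinopril kidneys, a difference of −0.24 (adjusted p = 0.386, edgeR). miR-30c-5p, miR-30b-5p and miR-30c-2-3p differed by −0.18, −0.12 and −0.09, with groups that overlapped. The members' median was −0.01, against −0.02 over all rat miRNAs, and 5 of 10 were positive.

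Lisinopril-treated kidneys were also set against control kidneys, which are shared with the comparison of irradiation alone. No member was called by edgeR, DESeq2 or limma-voom, while edgeR called 6.21% of all rat miRNAs. Over all rat miRNAs DESeq2 called 6 higher and 23 lower, and limma-voom 2 higher and 18 lower. Unadjusted p from edgeR was under 0.05 for 3 of 10 members and for 22.7% of all. Groups did not overlap for 1 member, miR-30d-3p, and for 13.4% of all rat miRNAs. Its difference was 0.49 (SE 0.164, adjusted p = 0.0942, edgeR). The call on miR-30d-3p depended on the fit: adjusted p was 0.0245 with only both compared groups fitted, 0.0480 on library totals, 0.0437 without irradiated library 2 and 0.0319 without irradiated library 4. In that order, edgeR called 17, 4, 17 and 9 rat miRNAs higher and 23, 16, 26 and 24 lower. The main fit called 3 higher and 23 lower.

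The other members with an unadjusted p under 0.05 were miR-30a-3p and miR-30e-5p, which had opposite signs. miR-30a-3p was at 706, 1049, 819 and 1090 CPM in control and at 1326, 918, 1121, 1281 and 1469 CPM in lisinopril libraries. All lisinopril libraries but library 2 were above all controls, and the difference was 0.42 (SE 0.154, adjusted p = 0.117, edgeR). miR-30e-5p was at 14443, 17350, 15335, 16126 and 17819 CPM in lisinopril libraries, within or below the control range, a difference of −0.33 (SE 0.148, adjusted p = 0.194, edgeR) and −0.19 without control library 1. miR-30d-5p differed by −0.25 (adjusted p = 0.277, edgeR). miR-30a-5p was near control, at −0.07 with a 95% interval of −0.40 to 0.27, and at 0.01 on library totals. The members' median was 0.04, against 0.05 over all rat miRNAs.

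With both irradiated groups averaged against control, edgeR called 7.64% of all rat miRNAs and no member, and DESeq2 and limma-voom called no member either. Over all rat miRNAs DESeq2 called 11 higher and 23 lower, and limma-voom 7 higher and 20 lower. Unadjusted p from edgeR was under 0.05 for 1 of 10 members, miR-30e-5p, and for 23.9% of all. Its difference was −0.37 (SE 0.131, adjusted p = 0.0979, edgeR), and −0.42 with adjusted p = 0.0385 without irradiated library 4. It was −0.20 with adjusted p = 0.294 on library totals alone (edgeR), and −0.22 without control library 1. Without irradiated library 4, calls over all rat miRNAs rose from 9 to 24 higher and from 23 to 30 lower. In this comparison 2 of 5 5p arms and 5 of 5 3p arms were positive, with medians of −0.12 and 0.16. Over all rat miRNAs 55.4% were positive, with a median of 0.04. For irradiated against control, lisinopril against control and lisinopril against irradiated, 4, 4 and 3 of 5 3p arms were positive. In each of those, 2 of 5 5p arms were positive.

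The ratio of 5p to 3p reads compares arms of a hairpin within a library, so it does not depend on library scaling. All 5 hairpins were 5p-dominant in all 3 groups, as were 81 of the 124 arm pairs of the table by their medians. The mean ratio in control kidneys was 25.1 ± 6.96 for miR-30e, 98.3 ± 18.9 for miR-30c-2, 102 ± 30.8 for miR-30a, 139 ± 9.44 for miR-30d and 168 ± 38.7 for miR-30b (SD, n = 4 each). The ratio of miR-30c-2 uses all miR-30c-5p reads, including those of the other hairpin, and is an upper limit. Log2 ratios were compared with limma over the 124 pairs that had a mean of at least 10 counts in each arm. No ratio of the family was called in any of the comparisons, and neither was any of the 124 pairs (0%). Adjusted exact permutation tests also called 0, but could hardly have done otherwise. Their smallest possible p was 0.0286 for 4 against 4 libraries and 0.00794 for 4 against 5, before adjustment over 124 pairs.

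The arms of miR-30d separated the lisinopril group from both others. Reads of its 5p arm outnumbered those of the 3p arm 127, 136, 142 and 149 to 1 in control libraries 1 to 4. The ratio was 139, 257, 183 and 93.6 in irradiated libraries 1 to 4. It was 82.6, 90.5, 82.6, 84.7 and 76.2 in lisinopril libraries 1 to 5. Every lisinopril library lay below every library of the other groups, and the irradiated group was the widest. Against irradiated kidneys the log2 difference was −0.92 (SE 0.234, adjusted p = 0.187, limma), the smallest p of 124 pairs. The two-sided exact permutation p was 0.00794, the smallest that 4 against 5 libraries can give, and 0.492 after adjustment over the pairs. Without irradiated library 4 the limma difference was −1.17 with adjusted p = 0.00549. When each library was left out in turn it ranged from −1.17 to −0.68. Adjusted p reached 0.817 among the alternatives (limma). Groups did not overlap for 1 of 5 family ratios here and for 3.23% of all pairs, and unadjusted p was under 0.05 for 1 of 5 and 9.68% of all.

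Against control the miR-30d ratio differed by −0.74 (SE 0.234, adjusted p = 0.297, limma), again with no overlap and an exact permutation p of 0.00794. In that comparison groups did not overlap for 1 of 5 family ratios and for 4.03% of all pairs. Unadjusted p was under 0.05 for 2 of 5 and 8.87% of all. The second was miR-30e, whose ratio was 16.5 ± 2.53 (n = 5) with lisinopril, a difference of −0.58 (SE 0.209, adjusted p = 0.418, limma). Between irradiated and control kidneys the miR-30d difference was 0.18, and turned to −0.05 without irradiated library 2.

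**Figure D3:**
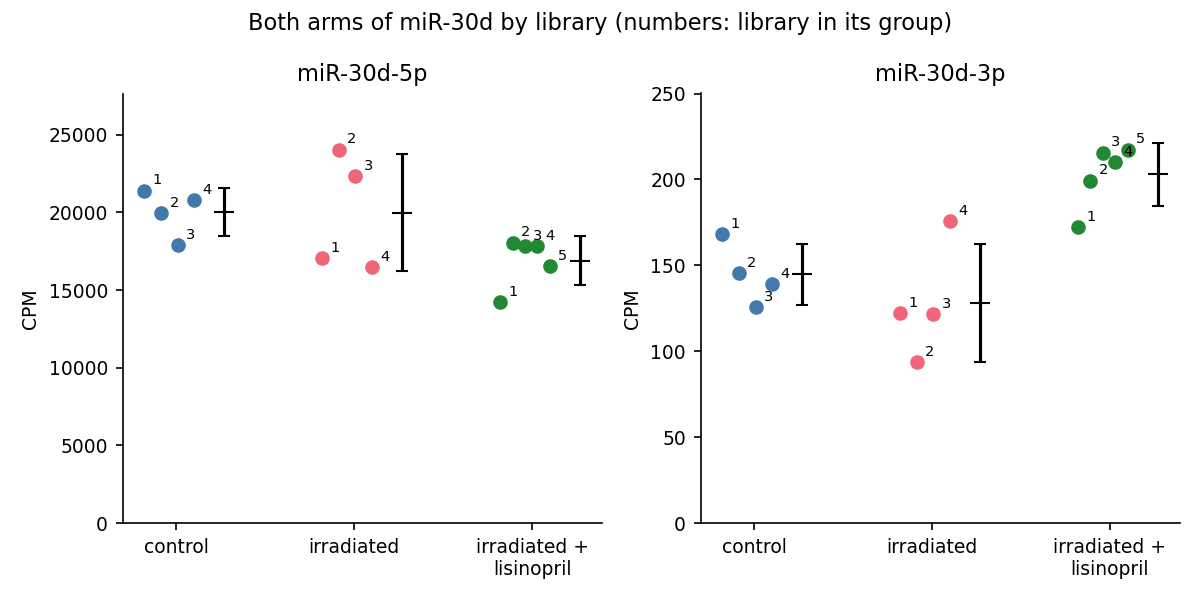
Both arms of miR-30d in CPM (axes from 0). Points are libraries with their number in the group, and bars are group means ± SD. The 3p arm is at 172 CPM or above in the 5 lisinopril libraries and at 176 CPM or below in the other 8, and the 5p arm averages 20020, 19976 and 16892 CPM in control, irradiated and lisinopril kidneys.

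The ratio of miR-30a had the largest difference of the family between irradiated and control kidneys. It was 146, 95.7, 86.8 and 77.5 in control libraries 1 to 4 and 62.8, 48.3, 66.7 and 89.7 in irradiated libraries 1 to 4. Irradiated library 4 lay among the controls, as it did for the 5p arm alone. The log2 difference was −0.59 (SE 0.247, adjusted p = 0.305, limma), and control library 1 held the highest ratio of the group. Unadjusted p was under 0.05 for 1 of 5 family ratios and for 15.3% of all pairs, and groups did not overlap for 0 of 5 and 2.42% of all. miR-30e had 18.4 ± 2.93 (n = 4) in irradiated kidneys and a difference of −0.42 (adjusted p = 0.378, limma), which was −0.27 without control library 1. miR-30b and miR-30c-2 differed by −0.01 and −0.20 with wide overlap. The median over all 124 pairs was −0.13.

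**Figure D4:**
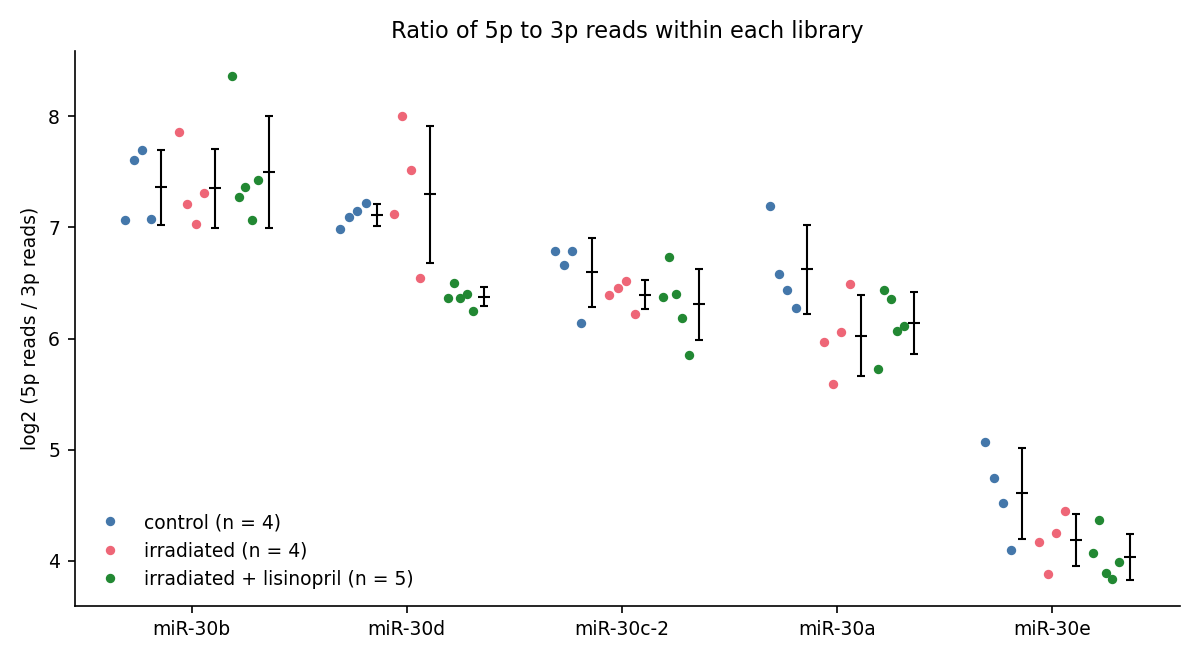
Log2 ratio of 5p to 3p reads for 5 hairpins. Points are libraries coloured by group, and bars are group means ± SD. All points are above 0, miR-30e is lowest, and for miR-30d the 5 lisinopril libraries lie below the other 8.

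Members were also compared with each other by the SD of their log2 ratio over the 13 libraries, in which a small SD means that both moved together. These are descriptions, and members of a library share its preparation and depth. Of the 45 pairs, the closest were miR-30d-5p with miR-30b-3p (0.156), miR-30a-5p with miR-30e-5p (0.181), miR-30b-5p with miR-30c-5p (0.195), miR-30a-3p with miR-30e-3p (0.205) and miR-30a-3p with miR-30c-2-3p (0.232). The median was 0.397. The closest pair lies across the neighbouring genes Mir30b and Mir30d, but their 5p arms had an SD of 0.431, above the median. Arms of the same hairpin lay on both sides of that median. miR-30d-5p and miR-30d-3p had 0.530, miR-30a-5p and miR-30a-3p 0.409, miR-30b-5p and miR-30b-3p 0.388, miR-30e-5p and miR-30e-3p 0.367, and miR-30c-5p and miR-30c-2-3p 0.279. miR-30d-3p followed miR-30a-5p (0.258) more closely than its own partner arm.

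Pairs of 5p arms, which share a seed, were spread as widely as mixed pairs. The median SD was 0.414 for the 10 pairs of 5p arms, 0.349 for the 10 pairs of 3p arms and 0.401 for the 25 mixed pairs. miR-30a-5p and miR-30c-5p, alike in their first 12 bases, were 42nd of 45 at 0.534. Reads of miR-30a-5p were 3.68 to 6.55 times those of miR-30c-5p in control, 2.36 to 6.26 times in irradiated and 3.01 to 7.64 times in lisinopril libraries. Reads of miR-30a-5p were 3.93 to 4.89, 4.06 to 4.57 and 4.59 to 5.97 times those of miR-30e-5p in the same order, a narrower band.

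**Figure D5:**
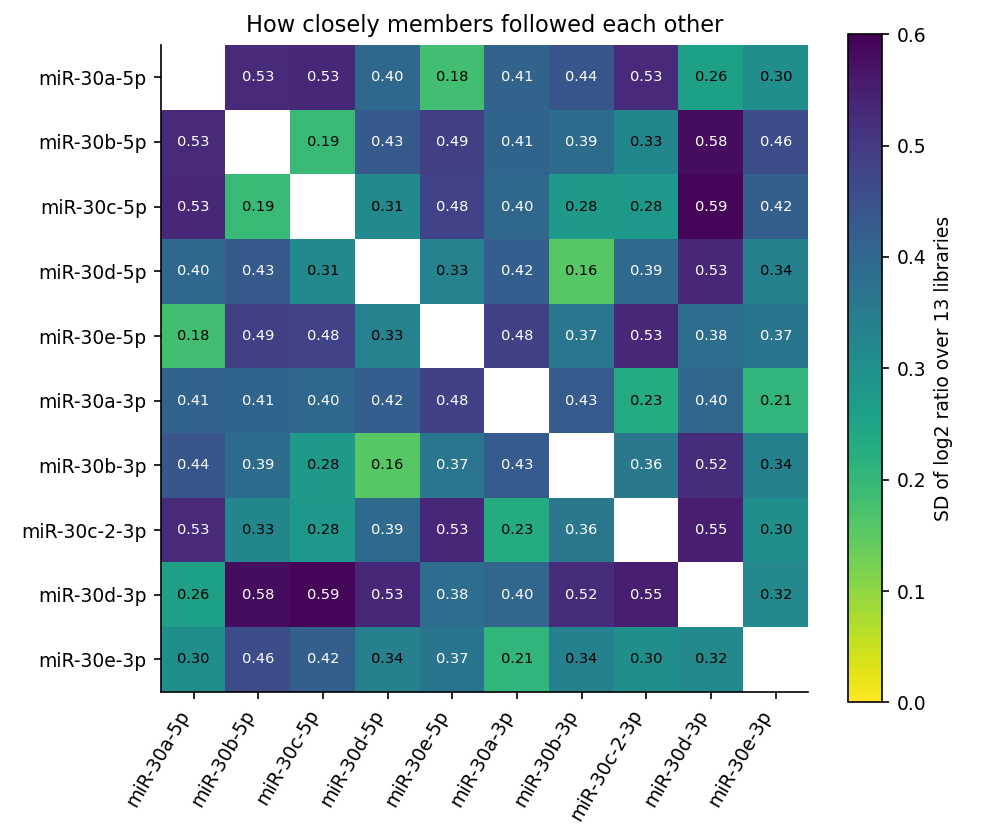
SD of the log2 ratio of each pair of members over 13 libraries, where a lower value (lighter) means that they followed each other more closely. The lowest is 0.156 for miR-30d-5p with miR-30b-3p and the highest 0.591 for miR-30c-5p with miR-30d-3p.

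By the same measure, the miRNAs nearest to the leading 5p arms were sought among 142 rat miRNAs of at least 100 CPM outside the family. Nearest to miR-30a-5p were miR-27b-3p (SD 0.124), miR-3587 (0.125) and miR-29b-3p (0.137), and 9 of the 142 were closer to it than miR-30e-5p was. Nearest to miR-30e-5p were miR-26b-5p (0.102), miR-3587 (0.107) and miR-29b-3p (0.121), and 5 of 142 were closer than miR-30a-5p. The median over the 142 was 0.354 and 0.350. Without control library 2 and irradiated library 4, the nearest to miR-30a-5p were miR-101a-5p (0.114), miR-10a-5p (0.122) and miR-3587 (0.133), and those of miR-30e-5p kept their order. In that setting 18 of the 142 were closer to miR-30a-5p than miR-30e-5p was, and 11 were closer to miR-30e-5p than miR-30a-5p was.

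Other miRNAs known for restraining fibrosis or for keeping epithelial identity, the miR-29 and miR-200 families, gave 0 calls of 8 in each of the 4 comparisons. Of the 8, 2 were positive for irradiated against control, 1 for lisinopril against control, 2 for lisinopril against irradiated and 1 for both irradiated groups against control. Their medians were −0.12, −0.14, −0.05 and −0.14 in that order, against 0.02, 0.05, −0.02 and 0.04 over all rat miRNAs. miR-29b-3p had the smallest p of the list for irradiation alone, with 119 CPM on average in control and 92.9 in irradiated kidneys, a difference of −0.36 (adjusted p = 0.261, edgeR). miR-29c-3p followed at −0.24 (adjusted p = 0.309, edgeR). miR-200b-3p, which targets the repressors Zeb1 and Zeb2, averaged 3783 CPM in control and 3105 with lisinopril, a difference of −0.29 (adjusted p = 0.105, edgeR). In the same comparison miR-29c-3p differed by −0.27 (adjusted p = 0.228, edgeR). Between lisinopril-treated and irradiated kidneys the smallest p belonged to miR-141-3p, at 635 and 420 CPM and a difference of 0.60 (adjusted p = 0.353, edgeR), and then to miR-200b-3p at −0.17.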

How the data were processed

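Kidney total RNA (1 ug) was made into TruSeq small RNA libraries, per the labels' protocols. The submitters' processing notes name Trim Galore 0.2.5, Bowtie 1.1.1 and the rn4 build, with the counting step not given in the sources used here. Values as deposited were whole-number counts of reads in 13 libraries, not normalized as far as its values show. The labels describe separate rats and give no batch or pairing. Within each group no library was a duplicate of another (lowest chi-square per degree of freedom between replicates 89.6). Libraries of different groups were not compared in this way.

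Counts of 460 rat mature miRNAs were tested with edgeR 4.0.16 under R 4.3.3 (filterByExpr, 419 kept, TMM, glmQLFit and glmQLFTest, a mean per group) and Benjamini-Hochberg adjustment at 0.05. Log2 arm ratios, with 0.5 counts added, were tested with limma 3.58.1 over 124 pairs. Alternatives included DESeq2 1.42.0, limma-voom, other scalings and filters, and each library left out. The procedure was tested on simulated data, with planted changes larger than any family difference reported here. That test therefore does not show how often differences of the reported sizes would be called. The members and lists were chosen with earlier results of these data known. Named miRNAs were all members, the 3 nearest to miR-30a-5p and miR-30e-5p, the 2 list miRNAs with the smallest p per comparison, and miR-10a-5p. The left-out pair of control library 2 and irradiated library 4 was added for the calls after the data were seen.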

Additional observations from a re-analysis of the deposited data

Results flagged for a closer look

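Each member and each arm ratio was checked in each group for a library far from the rest of its group, in 45 groups of values, and 2 stood out; chance alone marks about 1 in 20. miR-30b-5p in lisinopril library 1 was at 3959 CPM, while the other 4 lisinopril libraries were at 2019 to 2400 CPM. The log2 ratio of 5p to 3p reads of miR-30b in the same library was 8.36, while the others were at 7.06 to 7.43. Both values share the count of miR-30b-5p in that library, so they are not separate observations. The highest irradiated value of miR-30b-5p, 3715 CPM in library 1, was nearly as high.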

How the results depend on the processing

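Counts of called members rose from 0 in several settings. For irradiated against control the count ranged from 0 to 2 when each library was left out in turn. For lisinopril against control it ranged from 0 to 1, and it was 1 on library totals alone and 1 with only both compared groups. For lisinopril against irradiated it ranged from 0 to 1, was 1 with DESeq2 and was 2 without control library 2 and irradiated library 4 together, the setting added after the data were seen. For both irradiated groups against control it ranged from 0 to 1. Called arm ratios for lisinopril against irradiated ranged from 0 to 1 and were 1 without both libraries. The cause was not tested. Counts over all rat miRNAs varied more: for irradiated against control 1 to 35 were called higher and 0 to 25 lower, for lisinopril against control 2 to 17 and 11 to 37, for lisinopril against irradiated 0 to 29 and 0 to 34, and for both irradiated groups 3 to 24 and 12 to 45.

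Among 40 member differences, 30 kept their sign in every alternative, as did 13 of 20 arm ratio differences; all that turned had a main value of at most 0.18. Ranges when each library was left out are given first, then other turned values. Arm ratios, lisinopril against irradiated: miR-30a −0.033 to 0.26, miR-30b −0.070 to 0.32, miR-30c-2 −0.19 to 0.027. miR-30b arm ratio: −0.080 to 0.25 for lisinopril against control, −0.045 to 0.17 for both irradiated groups, and −0.18 to 0.10 for irradiated against control, with 0.0015 after adding 1 count and 0.087 without both libraries. miR-30d arm ratio, irradiated against control: −0.051 to 0.43.

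Member differences, irradiated against control: miR-30d-5p −0.10 to 0.10, with 0.27 on library totals, 0.013 unfiltered, 0.032 with other-species miRNAs and 0.079 without both libraries; miR-30d-3p 0.066 on library totals; miR-30e-3p −0.070 to 0.14, with −0.00076 above 10 CPM, −0.0034 with only both compared groups and −0.042 without both libraries. Lisinopril against control: miR-30a-5p −0.15 to 0.0077, with 0.0082 on library totals and 0.0081 with other-species miRNAs; miR-30b-5p −0.15 to 0.18; miR-30c-5p −0.13 to 0.10, with −0.011 under DESeq2, limma-voom and RLE, −0.034 above 10 CPM and −0.019 without both libraries. Lisinopril against irradiated: miR-30b-5p −0.33 to 0.016; miR-30e-5p −0.055 to 0.15, with −0.11 on library totals. Both irradiated groups: miR-30b-3p −0.024 to 0.089; miR-30d-5p 0.046 on library totals. No paired analysis was possible because the labels give no number or animal that pairs libraries across groups. Depth limits miR-30b-3p most, and no other member averaged below 100 CPM.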

Other observations

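The table also holds rows named after other species for this family. They entered the fits above only in the alternative with other-species miRNAs. mmu-miR-30f was the most abundant, at 64.8 ± 13.4 CPM (SD, n = 4) in control, 71.3 ± 12.7 (n = 4) in irradiated and 83.1 ± 12.0 (n = 5) in lisinopril kidneys. Its counts were 5.70% to 8.15% of those of miR-30a-3p in every library. dre-miR-30a, pma-miR-30b, pma-miR-30d and pma-miR-30e-5p averaged under 10 CPM in each group, and pma-miR-30d had 0 to 12 counts per library. Whether these rows count reads of the rat members a second time was not tested. rno-miR-30c-1-3p, the 3p arm of the other miR-30c hairpin, averaged 62.0 CPM, rank 172 of 419, and its differences lay between 0.01 and 0.06 in the 4 comparisons.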
